A study of Mus musculus with 6 samples.

Results

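The PGC-1 coactivators, their partner receptors and the nuclear factors that drive mitochondrial genes were examined in the quadriceps of AR97Q mice, transgenic animals that model the motor neuron and muscle disease spinal and bulbar muscular atrophy (SBMA). They carry a human androgen receptor with an expanded polyglutamine tract. The 10 genes are Ppargc1a, Ppargc1b, Pprc1, Esrra, Esrrg, Ppara, Ppard, Nrf1, Gabpa and Tfam, and they were found among the array probes that are not controls by matching each probe's transcript to their symbols or synonyms. They had 21 of the 56605 probes, of which 19 exceeded background clearly on 3 or more arrays and were tested, so that all 10 genes had a value. The other 2 probes, of Nrf1 and Pprc1, were well above background on 0 and 2 of the 6 arrays. All mice were male, 9 weeks old, carried the transgene and were on a C57BL/6J background, and each array held the RNA of 1 mouse. The 3 mice in the exercise group had been made to run in a wheel at 5 m/min for 60 min per day, 5 days per week, for 4 weeks from 5 weeks of age, and the muscle was taken on the day following their final run. The 3 mice in the sedentary group had no such training. No mice without the transgene were on these arrays, and the promoter that drives the transgene was not given in the sources used here.

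PGC-1 proteins do not bind DNA themselves. They attach to transcription factors at the promoters and enhancers of nuclear genes for the respiratory chain, the tricarboxylic acid (TCA) cycle and fatty acid oxidation, and raise their transcription. The estrogen-related receptors (ERRs), nuclear respiratory factor 1 (NRF1) and GA-binding protein (GABP) recruit them to respiratory genes, and the peroxisome proliferator-activated receptors (PPARs) recruit them to genes of fat oxidation. TFAM, a target of NRF1 and GABP, enters mitochondria to pack and transcribe their DNA. In skeletal muscle this network is known for its response to endurance exercise. The arrays measured its transcripts and not the activity of its proteins.

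Promoters of 3 members and 2 targets are shown because they hold the response elements by which these factors reach a gene, or, in Ppargc1a, none of those searched for. The sequences are from RefSeq on GRCm38.p6, run 5′ to 3′ on the strand of the gene from 250 bases before its start to 50 after, and the coordinates are of that build, whereas the array was designed on mm9. Capitals mark matches, on either strand, to the NRF1 element GCGCANGCG, the GABP element CCGGAAG, the ERR element TNAAGGTCA or the cyclic AMP response element (CRE) TGACGTCA. The windows are those of Ppargc1a (chr5:51567676-51567975, minus strand), Esrra (chr19:6921759-6922058, minus strand), Tfam (chr10:71237995-71238294, minus strand), Cycs (chr6:50566520-50566819, minus strand) and Uqcrc1 (chr9:108936398-108936697, plus strand).
Ppargc1a: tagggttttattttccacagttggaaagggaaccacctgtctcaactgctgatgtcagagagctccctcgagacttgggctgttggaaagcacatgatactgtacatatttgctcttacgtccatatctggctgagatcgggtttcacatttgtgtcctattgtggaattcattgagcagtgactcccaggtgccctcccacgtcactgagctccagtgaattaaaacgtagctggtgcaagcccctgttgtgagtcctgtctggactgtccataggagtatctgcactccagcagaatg
Esrra: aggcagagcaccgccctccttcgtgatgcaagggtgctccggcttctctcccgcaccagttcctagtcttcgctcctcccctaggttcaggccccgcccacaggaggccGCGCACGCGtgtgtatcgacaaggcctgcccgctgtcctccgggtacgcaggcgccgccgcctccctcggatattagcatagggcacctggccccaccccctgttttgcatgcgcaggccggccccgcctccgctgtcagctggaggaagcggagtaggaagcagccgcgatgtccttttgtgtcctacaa
Tfam: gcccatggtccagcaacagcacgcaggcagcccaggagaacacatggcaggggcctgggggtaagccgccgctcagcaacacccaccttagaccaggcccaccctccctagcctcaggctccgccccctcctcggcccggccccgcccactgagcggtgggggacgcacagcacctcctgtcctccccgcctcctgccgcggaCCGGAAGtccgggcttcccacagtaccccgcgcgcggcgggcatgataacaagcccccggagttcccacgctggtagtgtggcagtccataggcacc
Cycs: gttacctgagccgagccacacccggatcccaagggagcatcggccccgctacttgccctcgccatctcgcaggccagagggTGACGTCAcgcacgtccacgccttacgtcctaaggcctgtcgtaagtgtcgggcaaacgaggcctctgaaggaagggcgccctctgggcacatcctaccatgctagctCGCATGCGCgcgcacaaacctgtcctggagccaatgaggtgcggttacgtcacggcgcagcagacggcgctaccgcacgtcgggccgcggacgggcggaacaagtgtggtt
Uqcrc1: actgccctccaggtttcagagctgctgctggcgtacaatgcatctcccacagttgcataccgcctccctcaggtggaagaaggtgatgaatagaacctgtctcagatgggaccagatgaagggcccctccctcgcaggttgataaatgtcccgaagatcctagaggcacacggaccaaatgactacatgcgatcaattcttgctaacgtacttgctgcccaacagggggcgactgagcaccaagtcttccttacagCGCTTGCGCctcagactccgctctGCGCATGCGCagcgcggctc

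The Esrra window held an NRF1 element that began 141 bases before the start, and the Tfam window a GABP element that began 47 bases before it. In Cycs, which encodes cytochrome c, a CRE lay 169 bases before the start and an NRF1 element 61 bases before it. In Uqcrc1, a core subunit of complex III, 3 matches to the NRF1 element lay after the start, and the last 2 of them overlap on opposite strands. Over the 13 windows that the table holds for 9 of the members, 2 held an NRF1 element (Esrra and Ppara) and 2 a GABP element (Tfam and Gabpa), whereas the ERR element and the CRE were in 0 of them. The Gabpa element began 93 bases before the start. Of all 32851 windows, 6.25% held the NRF1 element, 8.86% the GABP element, 1.28% the ERR element and 1.79% the CRE. A match of letters is a description of the window and not a measured site. Only full matches to the stated letters were marked, so a partial or variant element, in Ppargc1a or elsewhere, would be missed.

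The values are log2 signals relative to the 75th percentile of the same array. That percentile was lower on the exercise arrays (251 to 257) than on the sedentary arrays (310 to 384), and 54.6 to 59.9% of all probes stood well above background. All arrays lay on 1 slide, on which the 3 exercise arrays and sedentary mouse 1 shared a row and sedentary mice 2 and 3 were in the next. Sedentary mouse 1 was also the sedentary array nearest to the exercise mean for 7 of the 10 genes, so that the difference from this mouse alone is given beside the main results. All 10 markers of skeletal muscle fibres fixed for the purpose were well above background on all 6 arrays. The brightness of a probe depends on the probe, and the values of different genes below are not compared with each other in level.

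Of the 10 member genes, only Esrra rose in the exercise group (limma, FDR under 0.05 across every gene tested), and 0 fell. Across the 25005 genes and transcripts tested, 11.5% were called higher and 6.12% lower, so that 1 call among 10 genes is near the share of all genes. The log2 fold changes (exercise minus sedentary) ran from -0.32 for Esrrg to 0.45 for Ppargc1b, with 7 above 0 and 3 below, and their median was 0.14 against 0.026 for all genes tested. At an unadjusted p under 0.05, limma had 2 members higher (Esrra and Tfam) and 0 lower, against 21.6% of all genes tested higher and 15.4% lower. No member reached the absolute log2 fold change of 1 that the methods set for differentially expressed genes (DEGs). For 4 members (Ppargc1b, Esrra, Ppard and Tfam) all 3 exercise values exceeded all 3 sedentary values, which was so for 25.0% of all genes tested. The opposite separation was seen in 0 members and in 18.2% of all genes tested. A separation of 3 arrays from 3 gives p = 0.1 by a two-sided exact permutation, which is the lowest this design can reach.

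**Figure D1:**
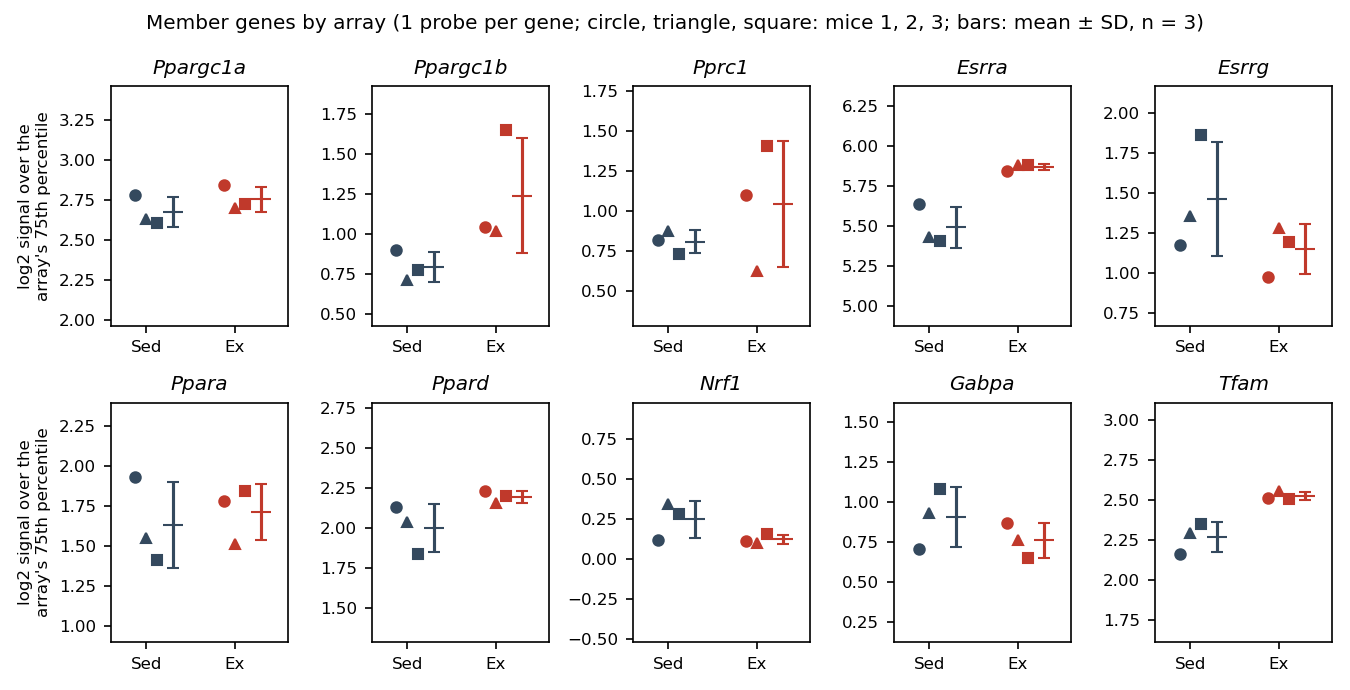
Log2 signal relative to the array's 75th percentile (vertical axes, each with its own origin and the same span of 1.5) of the main probe of each member gene in the sedentary (Sed) and exercise (Ex) mice. Markers are single arrays and bars are mean ± SD (n = 3); the groups separate in Ppargc1b, Esrra, Ppard and Tfam and overlap in the other 6 genes.

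Ppargc1a encodes PGC-1α, the family member that exercise is best known to induce in muscle. Its values in the exercise group were 2.85, 2.70 and 2.73, and those in the sedentary group were 2.78, 2.64 and 2.61. Sedentary mouse 1 lay above exercise mice 2 and 3, so that the groups overlapped. Ppargc1a differed by a log2 fold change of 0.08 (SE 0.09, limma adjusted p = 0.555), with a 95% interval from -0.14 to 0.31. In linear terms the interval ran from 0.906-fold to 1.24-fold, which does not contain a change of the size set for DEGs in either direction. A second probe of Ppargc1a had a log2 fold change of 0.10 and varied with the first over the 6 arrays (Pearson r = 0.966 over arrays that share both groups, given as a description). Against sedentary mouse 1 alone the difference was -0.025.

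Ppargc1b encodes PGC-1β, the close relative of PGC-1α that also coactivates ERRs and NRF1. The exercise arrays read 1.04, 1.02 and 1.65 and the sedentary arrays 0.89, 0.71 and 0.77. Every exercise value was above every sedentary value, but exercise mouse 3 stood well above the other two. The log2 fold change was 0.45 (SE 0.19, limma adjusted p = 0.139; 95% interval -0.0067 to 0.90), and without exercise mouse 3 it was 0.24. Its second, dimmer probe had the same order of groups and a log2 fold change of 0.29. The mouse that was high for Ppargc1b was also the highest for Pprc1, which encodes the PGC-1-related coactivator PRC. Pprc1 values were 1.10, 0.62 and 1.41 in the exercise group and 0.82, 0.87 and 0.73 in the sedentary group. Exercise mouse 2 was the lowest of all 6 and exercise mouse 3 the highest, and the SD was 0.40 in the exercise group and 0.073 in the sedentary group. The log2 fold change of Pprc1 was 0.24 (SE 0.20, adjusted p = 0.425), and it was between 0.055 and 0.45 with each array left out in turn.

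Esrra encodes ERRα, the nuclear receptor that works with PGC-1α on respiratory chain genes and is itself one of the targets of that pair. Its values were 5.85, 5.88 and 5.88 in the exercise group and 5.64, 5.43 and 5.41 in the sedentary group. The exercise arrays were tightly grouped (mean 5.87 ± 0.020, SD, n = 3), the sedentary arrays less so (5.49 ± 0.13, SD, n = 3), and sedentary mouse 1 was the nearest to the exercise group. The log2 fold change was 0.38 (SE 0.09, limma adjusted p = 0.0434), a 1.30-fold difference with a 95% interval from 1.11 to 1.52. Against sedentary mouse 1 alone the difference was 0.23. The call depended on the arrays and on the scaling. With sedentary mouse 1 left out the log2 fold change was 0.45 (adjusted p = 0.0217), and with any other array left out it was between 0.33 and 0.39 and the adjusted p between 0.102 and 0.146. Leaving out any of those other arrays left 0 of all genes tested called higher, as did the replicate number as a block. With quantile normalization Esrra was at 0.16 (adjusted p = 0.254), in the deposited table of values at 0.22 (adjusted p = 0.163), and without scaling at -0.096 (adjusted p = 0.456). With the row of the slide as a block it was 0.23 (adjusted p = 0.295) and with the replicate number as a block 0.38 (adjusted p = 0.0941).

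Esrrg encodes ERRγ, a relative of ERRα that is abundant in oxidative fibres. It read 0.97, 1.28 and 1.19 in the exercise group and 1.17, 1.35 and 1.86 in the sedentary group. Sedentary mouse 3 was the highest, and the other values of the groups overlapped. Esrrg had a difference of -0.32 on the log2 scale (SE 0.20, limma adjusted p = 0.286), and without sedentary mouse 3 it was -0.12. The second probe had a log2 fold change of -0.30 and the same highest array.

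Among the PPARs, Ppard encodes PPARδ, the main PPAR of skeletal muscle, and Ppara encodes PPARα, the receptor best known from fat oxidation in liver. Ppard was 2.23, 2.15 and 2.20 in the exercise group and 2.13, 2.04 and 1.84 in the sedentary group. There was no overlap, though the lowest exercise value and the highest sedentary value lay close together. The log2 fold change was 0.19 (SE 0.10, limma adjusted p = 0.221), and 0.066 against sedentary mouse 1. Ppara was 1.78, 1.51 and 1.85 in the exercise group and 1.94, 1.55 and 1.41 in the sedentary group. Its highest value was that of sedentary mouse 1 and its lowest that of sedentary mouse 3. Its difference was 0.08 (SE 0.17, adjusted p = 0.755), and it was -0.22 against sedentary mouse 1.

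Nrf1 and Gabpa encode the factors that bind the promoter elements above, and Gabpa is the DNA-binding subunit of GABP. Nrf1 was 0.11, 0.096 and 0.15 in the exercise group and 0.12, 0.34 and 0.28 in the sedentary group on its brightest probe. Sedentary mouse 1 lay within the exercise range and the other two above it, and the log2 fold change was -0.13 (SE 0.09, limma adjusted p = 0.357). A second probe of Nrf1, A_55_P2506320, whose transcript is another RefSeq variant of the gene, gave a different reading. It was -0.26, -0.28 and -0.23 in the exercise group and -0.75, -0.83 and -0.84 in the sedentary group. The groups were far apart and each was narrow. Its log2 fold change was 0.55 (SE 0.08, adjusted p over all probes = 0.0239), and against sedentary mouse 1 the difference was 0.49. It was between 0.53 and 0.58 with each array left out, but the adjusted p was then under 0.05 only without sedentary mouse 1 (0.0145) and between 0.0602 and 0.0996 without any other array. In the fits by gene, leaving out any of those other arrays left 0 of all genes called higher. With quantile normalization this probe was at 0.58 (adjusted p = 0.0294), in the deposited values at 0.39 (adjusted p = 0.0393) and without scaling at 0.075 (adjusted p = 0.596). With the slide row as a block it was 0.49 (adjusted p = 0.157) and with the replicate number as a block 0.55 (adjusted p = 0.0624). The third tested probe, for a further variant, had a log2 fold change of -0.0029 and its highest and lowest values in the sedentary group. The tested probes of Nrf1 thus disagreed, their mean differed by 0.14 on the log2 scale (adjusted p = 0.349), and no direction can be given for the gene.

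Gabpa read 0.87, 0.77 and 0.65 in the exercise group and 0.71, 0.93 and 1.08 in the sedentary group on its brightest probe. The groups overlapped, with a log2 fold change of -0.14 (SE 0.12, limma adjusted p = 0.434). On a dimmer probe, A_51_P364984, the exercise arrays (-0.90, -0.94 and -1.12) all lay below the sedentary arrays (-0.69, -0.81 and -0.65), with a log2 fold change of -0.27 (SE 0.10, limma adjusted p over all probes = 0.107). The third probe of Gabpa had a log2 fold change of -0.16, so that all 3 were below 0 and none passed the test.

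Tfam encodes the protein that coats mitochondrial DNA and starts its transcription. Its values were 2.51, 2.55 and 2.50 in the exercise group and 2.16, 2.29 and 2.35 in the sedentary group. All exercise arrays were above all sedentary arrays, and here sedentary mouse 1 was the farthest from the exercise group rather than the nearest. The log2 fold change was 0.26 (SE 0.09, limma adjusted p = 0.0874; unadjusted p = 0.0244), a 1.19-fold difference with a 95% interval from 1.03 to 1.38. The second probe had the same separation and a log2 fold change of 0.25, and the difference from sedentary mouse 1 alone was 0.36. Tfam did not pass the test at FDR 0.05 under any of the alternatives that were run.

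Counted by probe, 2 of the 19 tested probes of the members were called higher, those of Esrra and Nrf1 A_55_P2506320, and 0 lower. Of all 32726 probes, 10.5% were called higher and 5.65% lower. The groups did not overlap for 7 member probes higher in the exercise group and for 1 lower, and they overlapped for 11. Of all probes tested, 24.0% had such a separation with the exercise group higher and 17.8% with it lower.

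**Figure D2:**
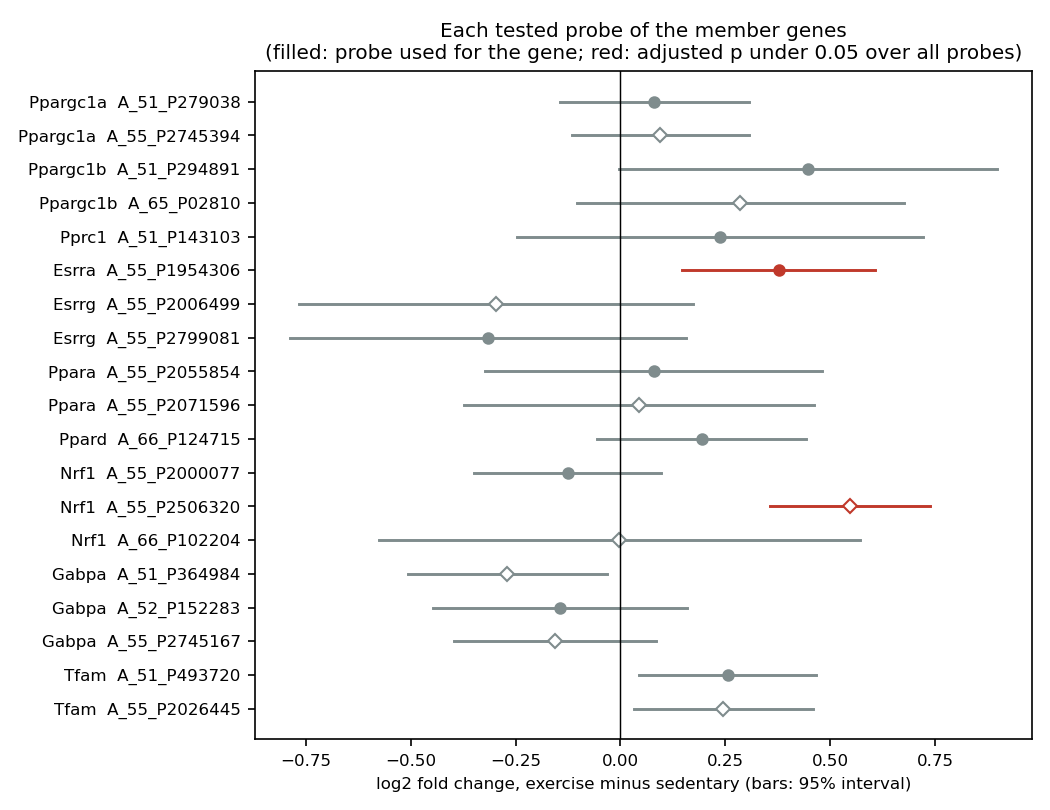
Log2 fold change, exercise minus sedentary (horizontal axis), with its 95% interval for each of the 19 tested probes of the member genes. Filled circles are the probes used for the gene, open diamonds the other probes, and red marks the 2 probes with an adjusted p under 0.05 over all probes; probes of a gene fall close together except for Nrf1.

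Because the raw signal was lower on the exercise arrays, the scaling sets where 0 lies. Without any scaling the median log2 fold change of all genes was -0.45, and all 10 members were below 0. In the deposited table of values the median of all genes was -0.13, and 5 members were above 0 and 5 below. Relative to the median of all genes, Esrra was at 0.35, Ppargc1b at 0.42 and Tfam at 0.23 with the 75th percentile, and the same without scaling and in the deposited table, since these differ by 1 shift per array. With quantile normalization the same differences were 0.17 for Esrra, 0.44 for Ppargc1b and 0.18 for Tfam. Ppargc1a lay between -0.061 and 0.055 from that median under all of these scalings and under normexp background correction.

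**Figure D3:**
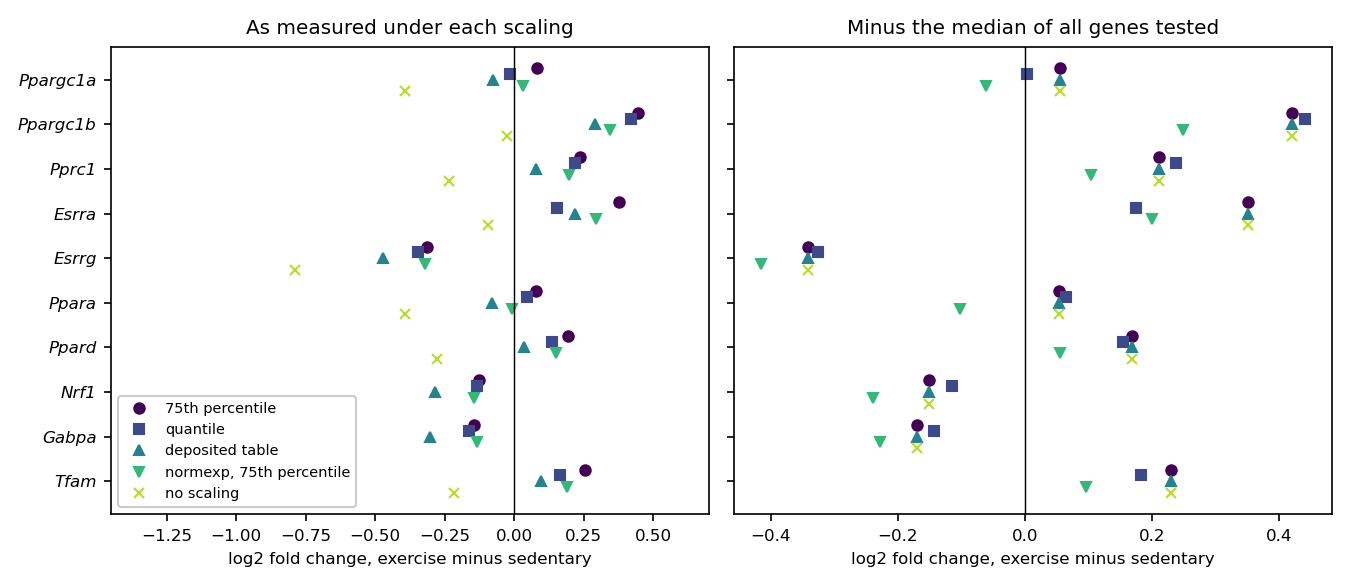
Log2 fold change, exercise minus sedentary (horizontal axes), of the 10 member genes under 5 ways of scaling the arrays, as measured (left) and after the median of all genes tested was subtracted (right). Without scaling all members lie below 0, whereas relative to the median Ppargc1b, Pprc1, Esrra, Ppard and Tfam lie above 0 and Esrrg, Nrf1 and Gabpa below 0 under all 5.

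The partners and regulators of these factors came next. Of 38 listed genes, 6 rose in the exercise group, 0 fell, and the median log2 fold change was 0.041, beside 11.5% of all genes called higher. All 3 retinoid X receptors, which pair with PPARs on DNA, were among the 6. Rxrg, the form typical of muscle, was 4.89, 4.61 and 4.52 in the exercise group and 3.77, 3.15 and 3.10 in the sedentary group, and its log2 fold change was 1.33 (SE 0.21, limma adjusted p = 0.0234). It was the only gene of this list past the fold change set for DEGs, and the groups were separated by a wide gap. Rxra rose by 0.57 (adjusted p = 0.0240). Rxrb rose by 0.35 (adjusted p = 0.0470), but it was at -0.12 without scaling, the one of the 6 whose sign turned there, and neither it (0.18, adjusted p = 0.188) nor Rxra (0.34, adjusted p = 0.0522) was called with quantile normalization. Perm1, a muscle regulator induced by PGC-1 and ERR that acts on mitochondrial genes, was 3.72, 3.58 and 3.84 against 2.97, 2.51 and 2.72. It rose by 0.98 (SE 0.14, adjusted p = 0.0234), and against sedentary mouse 1 alone it was higher by 0.74. Thra, a thyroid hormone receptor, rose by 0.62 (adjusted p = 0.0234), and Mapk14, the p38α kinase that phosphorylates PGC-1α, by 0.54 (adjusted p = 0.0364). Mapk14 was not called with quantile normalization (0.35, adjusted p = 0.0944), in the deposited table (0.39, adjusted p = 0.0928) or without scaling (0.070, adjusted p = 0.605). Without scaling, neither Thra (0.15, adjusted p = 0.409) nor Rxra (0.096, adjusted p = 0.460) was called. In the deposited table Rxrb was not called (0.20, adjusted p = 0.202). Kat2b, an acetyltransferase, had the lowest log2 fold change of the list at -0.56 and did not pass the test (adjusted p = 0.0624). Sirt1, a deacetylase of PGC-1α, was at -0.26 (adjusted p = 0.243), and Creb1, which drives Ppargc1a through CREs, at -0.12 (adjusted p = 0.351). Rxrb, Mapk14, Kat2b, Sirt1 and Creb1 were named for their role after their values were seen.

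Of 20 genes that transcribe, copy and maintain mitochondrial DNA beside Tfam, 2 rose and 0 fell, near the 11.5% called higher over all genes, with a median log2 fold change of 0.064. Endog, a mitochondrial nuclease, read 4.07, 3.86 and 3.91 in the exercise group and 3.47, 3.08 and 3.11 in the sedentary group, and it rose by 0.73 (SE 0.13, limma adjusted p = 0.0253). Top1mt, the mitochondrial topoisomerase, rose by 0.43 (adjusted p = 0.0285) and was at -0.046 without scaling. Polrmt, the mitochondrial RNA polymerase, was at 0.31 (adjusted p = 0.0712) and the helicase Twnk at 0.29 (adjusted p = 0.0586), both named after their values were seen. Without adjustment, limma had 7 of the 20 higher and 1 lower at p under 0.05, where all genes had 21.6% and 15.4%. The groups did not overlap for 10 of the 20 genes, 8 of them higher and 2 lower in the exercise group, where all genes had 25.0% and 18.2%.

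Of 24 targets of PPARs and ERRs in fatty acid uptake, storage and oxidation, 2 rose and 0 fell, a share below the 11.5% of all genes called higher, with a median log2 fold change of 0.21. Acaa2, the last enzyme of the β-oxidation cycle, was 6.27, 6.46 and 6.49 in the exercise group and 6.0, 5.81 and 5.62 in the sedentary group. It rose by 0.60 (SE 0.13, limma adjusted p = 0.0310). Fabp3, the fatty acid binding protein of muscle, rose by 0.60 (adjusted p = 0.0354). Both calls were lost with quantile normalization (Acaa2 0.36, adjusted p = 0.0930; Fabp3 0.16, adjusted p = 0.38) and in the deposited table (0.44, adjusted p = 0.0582, and 0.44, adjusted p = 0.0822). Pdk4, Angptl4, Ucp3 and Cpt1b, picked from this list as PPARδ targets after their values were seen, did not pass the test. These transcripts do not measure the activity of PPARδ. Pdk4, the kinase that turns off pyruvate dehydrogenase, was 4.41, 4.85 and 5.48 in the exercise group and 4.42, 4.45 and 4.65 in the sedentary group. The highest value was again that of exercise mouse 3, the groups overlapped, and the log2 fold change was 0.41 (SE 0.27, adjusted p = 0.308). Angptl4 was at -0.51 (SE 0.51, adjusted p = 0.505), Ucp3 at 0.32 (adjusted p = 0.343) and Cpt1b at 0.26 (adjusted p = 0.127).

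The targets in the respiratory chain and the TCA cycle followed. Of 29 tested genes, 23 rose and 0 fell, where 11.5% of all genes tested were called higher and 6.12% lower. All 29 had a log2 fold change above 0, and the median was 0.50. Uqcrc1 was 7.50, 7.52 and 7.51 in the exercise group and 6.97, 6.63 and 6.52 in the sedentary group. It rose by 0.80 (SE 0.13, limma adjusted p = 0.0236) with exercise arrays that were nearly alike. Cycs, whose promoter is shown above, was 8.23, 8.14 and 8.23 against 7.78, 7.44 and 7.59, and it rose by 0.59 (SE 0.11, adjusted p = 0.0258). Idh3a, a subunit of the TCA cycle's isocitrate dehydrogenase, rose by 0.77, and the muscle forms of the cytochrome c oxidase subunits Cox7a1 and Cox6a2 by 0.75 and 0.73. Cs, the transcript of citrate synthase, rose by 0.48 (adjusted p = 0.0383) and does not itself measure mitochondrial content. It was named after its value was seen, as were Cycs, Ogdh and Sdha. Cs was at 0.030 with quantile normalization (adjusted p = 0.853), 0.32 in the deposited table (adjusted p = 0.113) and 0.0025 without scaling (adjusted p = 0.986). Cycs was not called there either, at 0.15 (adjusted p = 0.371), 0.44 (adjusted p = 0.0608) and 0.12 (adjusted p = 0.394). Ogdh at 0.076 (adjusted p = 0.520) and Sdha at 0.16 (adjusted p = 0.214) were the lowest of the list. The exercise arrays were all above the sedentary arrays for 28 of the 29 genes, which was so for 25.0% of all genes tested.

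These respiratory calls moved with the scaling, the arrays and the blocks. With the slide row or the replicate number as a block, 0 of the 29 were called. With quantile normalization 1 of the 29 genes was called higher in place of 23, 21 were above 0, and the median was 0.11. Quantile normalization gives every array the same set of values, so that a probe of equal rank on all arrays has a difference of 0. The fibre marker Aldoa went from 0.70 to 2.1e-15 with it, and the part of this in the respiratory targets was not tested. In the deposited values 10 of the 29 were called, and without scaling 18 of 29 were above 0 with a median of 0.022 when the median of all genes was -0.45. Of the 23 called, 3 were below 0 with quantile normalization and 5 without scaling, and of the 8 other PGC-1α muscle genes called, 3 were below 0 without scaling. Against sedentary mouse 1 alone all 29 were higher, with a median of 0.37. Leaving out any array but sedentary mouse 1 left 0 of them called, as it left 0 genes called higher among all genes, with 6686 to 8146 at an unadjusted p under 0.05. Without sedentary mouse 1, 23 respiratory targets were called higher, as were 3476 of all genes. The calls in the other lists behaved likewise, with 0 higher in each list after leaving out any array but sedentary mouse 1, and without that mouse 10 partners, 3 genes of mitochondrial DNA upkeep, 4 fatty acid targets and 9 other PGC-1α muscle genes higher.

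Another 12 genes known to follow PGC-1α in muscle but of other functions were listed. Of the 12, 8 rose and 0 fell, where 11.5% of all genes tested were called higher and 6.12% lower. The median log2 fold change of the 12 was 0.46. Mb, myoglobin, was 8.07, 8.22 and 8.44 in the exercise group and 7.34, 6.76 and 7.04 in the sedentary group, and it rose by 1.20 (SE 0.18, limma adjusted p = 0.0234). Fndc5, the precursor of irisin, rose by 0.97 (SE 0.24, adjusted p = 0.0406) with a wider spread, its sedentary arrays reading 3.96, 3.10 and 3.33. Slc2a4, the glucose transporter GLUT4, and Sod2, the mitochondrial superoxide dismutase, rose by 0.91 and 0.79. Kyat1 and Kyat3, kynurenine aminotransferases that PGC-1α induces in trained muscle, were named after their values were seen. They were at 0.25 and 0.0031 and did not pass the test. With quantile normalization 2 of the 12, Mb and Slc2a4, were called higher. Fndc5 (0.81, adjusted p = 0.0636) and Sod2 (0.66, adjusted p = 0.0526) were not. Neither was called in the deposited table (adjusted p = 0.0662 and 0.0667) or without scaling (adjusted p = 0.0591 and 0.112).

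**Figure D4:**
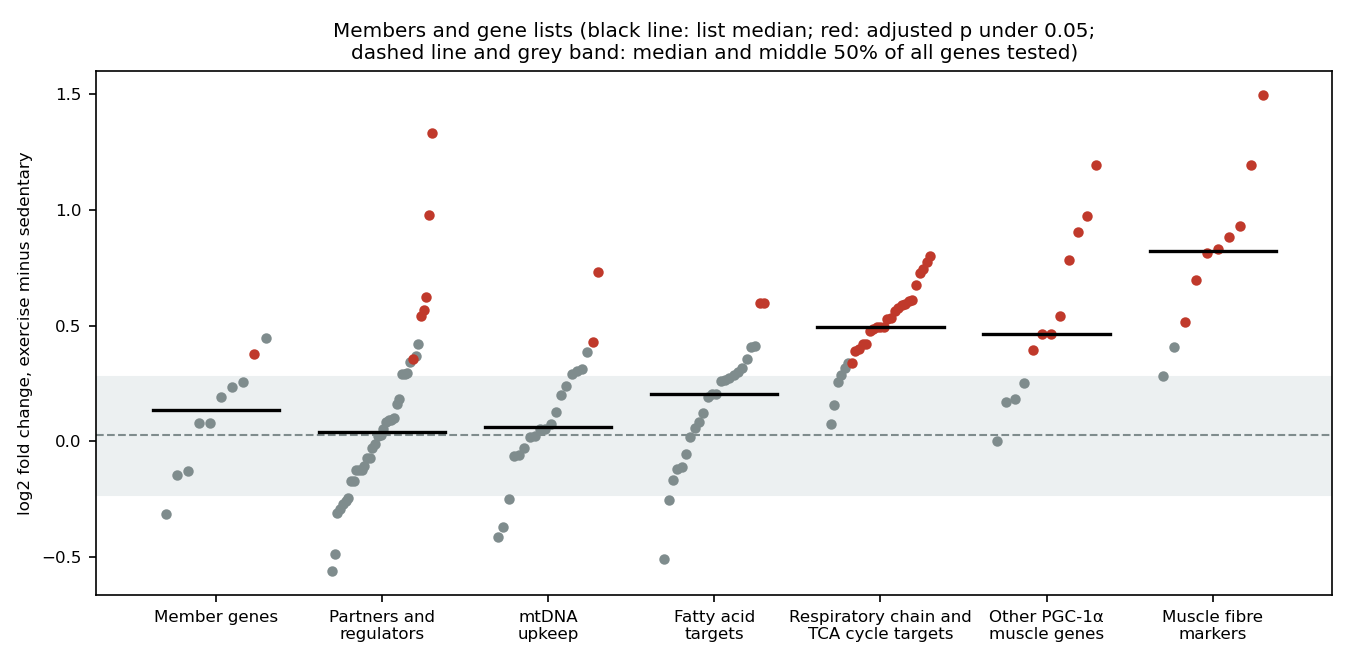
Log2 fold change, exercise minus sedentary (vertical axis), of each tested gene in the member list, the 5 related lists and the muscle fibre markers (horizontal axis). Black lines are list medians, red points have an adjusted p under 0.05, and the dashed line and band are the median (0.026) and the middle 50% (-0.23 to 0.28) of all genes tested; the respiratory targets and muscle markers lie mostly above the band and the members mostly within it.

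At an unadjusted p under 0.05, limma had 12 partners higher and 3 lower, 6 fatty acid targets, 27 respiratory targets and 8 other PGC-1α muscle genes higher and 0 of these 3 lists lower. The share of all genes at that threshold was 21.6% higher and 15.4% lower. With both directions added, the fatty acid targets did not exceed that share and the partners were near it. Taken alone, the 6 of 24 fatty acid targets that were higher slightly exceeded 21.6%, with 0 lower. Markers of muscle fibres moved the same way as the respiratory targets. Of 10 fibre markers 8 rose and 0 fell, where 11.5% of all genes tested were called higher and 6.12% lower. The median log2 fold change of the markers was 0.82, and Ckm, muscle creatine kinase, rose by 1.5. With quantile normalization 3 of the 10 (Acta1, Ckm and Mb) were called higher, 2 were below 0, Tnnc2 among them at -0.11, and the median was 0.23. In the deposited values 6 were called and without scaling 5, with medians of 0.66 and 0.35. With the slide row or the replicate number as a block, or without any array but sedentary mouse 1, 0 were called. The summed level of the 10, in units of the array's 75th percentile, was 6657 to 7308 in the exercise group and 3610 to 4821 in the sedentary group. The summed level of the respiratory targets was 8731 to 9209 and 5943 to 6950. The part of this shift in the result was not tested, and in bulk muscle fewer cells of a type and less RNA per cell cannot be told apart. Mb is in both the marker list and the list of PGC-1α muscle genes.

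Of 7 adipocyte markers 6 were below 0 and the median was -0.78, but only Lep passed the test, as higher by 0.35. Their summed level was 238 to 625 in the exercise group and 423 to 545 in the sedentary group, and the groups overlapped. Exercise mouse 3, the highest for Ppargc1b, Pprc1 and Pdk4, was the highest exercise array for all 7 adipocyte markers. Its Adipoq value was 4.51 against 2.71 and 3.08 in exercise mice 1 and 2. The sedentary mice were at 4.24, 4.65 and 4.28 for Adipoq, near exercise mouse 3. Their Ppargc1b values nevertheless lay below those of all exercise mice, and for Pprc1 and Pdk4 the groups overlapped. Of 4 smooth muscle markers 1 fell, Myh11 by 0.95, beside 6.12% of all genes called lower. None of 7 macrophage, 5 endothelial, 3 tested red blood cell and 2 tested brown fat markers passed the test by limma. Their part in the results above was not tested either.

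The variation of the members among themselves did not follow 1 pattern. Over the 6 arrays, Pearson's r with Ppargc1a was 0.81 for Ppard, 0.78 for Ppara and 0.67 for Esrra, 0.39 for Pprc1, 0.34 for Ppargc1b and 0.17 for Tfam. It was -0.86 for Esrrg, -0.78 for Nrf1 and -0.55 for Gabpa. The named genes most like Ppargc1a over the 6 arrays were M1ap (r = 0.996), Itm2a (r = 0.995), Phlda1, Cryba4 and Tdrd3 (each r = 0.990), and none of these 5 passed the limma test between the groups. These are descriptions over 6 arrays that share the slide and the scaling, and the groups contribute to them.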

How the data were processed

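RNA from the quadriceps of 3 exercised and 3 sedentary AR97Q mice was labelled with 1 dye and hybridized, by a contracted company per the study's methods, to Agilent SurePrint G3 mouse arrays. The deposited scanner files give a processed intensity per spot, background-subtracted by Feature Extraction 12.1.0.3, with flags for outliers, saturation (0 spots) and signal well above background. A deposited table of values was that intensity times 1 factor per array (1.33 to 1.88). Its making was not stated, and it was used as an alternative. The iDEP tool and the thresholds of FDR 0.05 and absolute log2 fold change 1 are from the study's methods. At both thresholds, limma on the deposited table gave 237 genes higher and 553 lower, near the study's own counts of DEGs. The scaling used for the main results gave 430 higher and 264 lower, whereas the study reports more lower than higher DEGs. Calls under the main scaling are therefore not to be read as those of the study.

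Control spots (3671 of 62976) and outlier spots were left out, spots of a probe averaged, and log2 intensity taken minus each array's 75th percentile. Probes with a missing value (22) or well above background on fewer than 3 arrays were removed, and 32726 remained. Transcript identifiers were matched to RefSeq symbols (34566 probes named, 22039 not), and a gene was represented by its brightest probe. The limma package 3.58.1 (R 4.3.3) compared the groups, two-sided, with Benjamini-Hochberg adjustment over all genes or all probes and no covariate, and checked on simulated data. Alternatives were other scalings, background correction, filters, the mean of a gene's probes, the replicate number or slide row as a block, an unpaired t-test across all genes and each array left out. The members and gene lists were chosen with earlier results of these data known, so no list was tested as a set. From each list, up to 4 genes with the largest rise and up to 4 with the largest fall past the FDR are named, and others only where stated. Precision is limited by the number of arrays. The result of 1 list of cell type markers is not reported here.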

Additional observations from a re-analysis of the deposited data

How the results depend on the processing

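Counts are of genes called by limma at FDR 0.05, and shifts are list medians minus that of all genes. With quantile normalization, 0 members and 1 member probe were called higher, as were 1865 of all genes, 3 partners, 0 fatty acid targets (1 lower), 1 respiratory target and 2 other PGC-1α muscle genes. The shifts were -0.034 for partners, 0.056 for fatty acid, 0.12 for respiratory and 0.32 for muscle genes. Ppargc1a was at -0.016 and Nrf1 probe A_66_P102204 at 0.093. In the deposited table, 0 members were called, 1 member probe was higher and 1 lower, 1172 of all genes were higher and 3201 lower, and 2 partners were lower. There 1 mtDNA gene was higher and 1 lower, and 0 fatty acid, 10 respiratory and 2 muscle genes were higher. Ppargc1a was at -0.077 (second probe -0.063) and Ppara at -0.079 (second probe -0.11). Without scaling, 0 members were higher and 5 lower, 0 member probes higher and 10 lower, and 617 of all genes higher and 11280 lower. For partners 2 were higher and 22 lower, for mtDNA genes 0 and 7, for fatty acid targets 0 and 5, for respiratory targets 1 and 1, and for muscle genes 2 and 1. Ppargc1a was then at -0.39 (second probe -0.38), Ppargc1b at -0.027 (-0.19), Pprc1 at -0.24, Esrra at -0.096, Ppara at -0.39 (-0.43), Ppard at -0.28, Tfam at -0.22 (-0.23) and Top1mt at -0.046. With normexp, 6169 of all genes were higher, 3 partners and 1 fatty acid target were lower, and the shifts were -0.0029 for members, -0.10 for partners, -0.038 for mtDNA, 0.33 for respiratory and 0.26 for muscle genes. Ppara was at -0.0086, Nrf1 probe A_66_P102204 at 0.17 and Gabpa probe A_55_P2745167 at 0.016. Without a filter on dim probes, 9741 of all genes were higher, and the shifts were -0.043 for members, -0.14 for partners, -0.12 for mtDNA, 0.025 for fatty acid, 0.32 for respiratory and 0.28 for muscle genes, since the median of all genes was then 0.18. With probes well above background on all 6 arrays, 1 partner was lower. With the mean of a gene's probes, Nrf1 was at 0.14. By an unpaired t-test, 0 members, 438 of all genes (204 lower), 1 partner, 0 mtDNA, 0 fatty acid, 3 respiratory and 1 muscle gene were higher after Benjamini-Hochberg. The study's methods name that test for animal experiments and use iDEP for the arrays.

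No sign was seen that the replicate numbers paired the mice. Deviations of same-numbered arrays correlated at 0.015, 0.085 and 0.036 over genes, which cannot exclude a pairing. With the replicate number as a block, 0 genes were called higher and 0 lower over all genes (8591 had an unadjusted p under 0.05), with 0 members, 0 member probes and 0 genes of each list. With the slide row as a block, which compares the exercise mice with sedentary mouse 1, 0 of all genes were higher and 3 lower, and 0 members, member probes or listed genes were higher. The shifts were then 0.031 for members, 0.12 for mtDNA, 0.34 for respiratory and 0.31 for muscle genes. Ppargc1a was at -0.025 (second probe -0.0063), Ppara at -0.22 (-0.30), Nrf1 at 0.0016, Gabpa at 0.055 and Esrrg probe A_55_P2006499 at 0.024.

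With each array left out in turn, 0 to 1 members, 0 to 2 member probes and 0 to 3476 of all genes were higher and 0 to 2060 lower, and all of these calls but 1 lower gene came without sedentary mouse 1. The ranges were 0 to 10 for partners higher and 0 to 1 lower, 0 to 3 for mtDNA genes, 0 to 4 for fatty acid targets, 0 to 23 for respiratory targets and 0 to 9 for muscle genes. The shift of the members was between 0.046 and 0.19, of partners between -0.021 and 0.057, of mtDNA genes between 0.021 and 0.089, of fatty acid targets between 0.14 and 0.24, of respiratory targets between 0.43 and 0.53 and of muscle genes between 0.36 and 0.51. Ppara was between -0.031 and 0.23 (second probe -0.10 and 0.22), below 0 only without sedentary mouse 3, and Nrf1 probe A_66_P102204 to 0.012, 0.18 and 0.093 without exercise mouse 2, sedentary mouse 1 and sedentary mouse 3. The cause of these changes was not tested, beyond the arrays or genes that a setting removes.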

Other observations

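The promoter windows of the target lists differed in the elements they held. Of 28 windows for 22 respiratory chain and TCA cycle genes, 28.6% held the NRF1 element, 10.7% the GABP element, 3.57% the ERR element and 21.4% the CRE, against 6.25%, 8.86%, 1.28% and 1.79% of all windows. The single ERR match lay in Sdhd, a subunit of succinate dehydrogenase, and Cycs, Uqcrfs1, Mdh2 and Ogdh held the CRE. Of 18 windows for 16 genes of mitochondrial DNA upkeep, 44.4% held the GABP element and 16.7% the NRF1 element. Of 20 windows for fatty acid targets, 2 held the NRF1 element, 3 the GABP element and 0 the ERR element or the CRE. Several windows of a gene can overlap, as those of Ogdh do, the CRE reads the same on both strands, and a window of 300 bases leaves out enhancers. No test was made of these shares.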
